A study of Rattus norvegicus with 64 samples.

Results

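The genes described are 8 genes that inhibitory neurons use to make, load or accompany the transmitter GABA. They are Gad1 and Gad2, Slc32a1, the neuropeptide genes Sst, Vip, Npy and Cck, and the calcium-buffer gene Pvalb. They were taken by gene name, and 7 of the 8 have a row of that name. Of the 32552 rows without spike-ins, only 15432 had a gene symbol. Npy has none and is not analysed here, and whether a row without a symbol holds it was not checked. RNA sequencing was made from hippocampus and cortex of the same 32 rats, giving 64 libraries. The rats carried ApoE4 or ApoE3, names of human alleles of the lipid carrier apolipoprotein E, and were given doxorubicin, an anthracycline chemotherapy drug, or phosphate-buffered saline (PBS). The labels do not say how the alleles were introduced or which strain carried them. The 8 groups were hippocampus and cortex of ApoE4 rats on doxorubicin, ApoE4 rats on PBS, ApoE3 rats on doxorubicin and ApoE3 rats on PBS, each with 8 libraries from 4 females and 4 males. Dosing was weekly at 2 mg/kg for 4 weeks and began at 5 weeks of age, and brains were taken 5 to 6 weeks after the final dose.

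GABA is made from glutamate by the glutamate decarboxylases GAD67, encoded by Gad1, and GAD65, encoded by Gad2. The vesicular transporter VGAT, encoded by Slc32a1, loads it into synaptic vesicles. Interneurons of hippocampus and cortex fall into classes by what they carry beside GABA. Somatostatin cells (Sst) mostly contact dendrites, parvalbumin cells (Pvalb) contact cell bodies and initial axon segments at high firing rates, and cells with vasoactive intestinal peptide (Vip) mostly contact other interneurons. Cholecystokinin (Cck) marks a class of basket cells but is also made by many excitatory neurons, so its level is not an interneuron measure alone. Gad1, Gad2 and Slc32a1 are also used by striatal projection neurons. In bulk tissue, fewer cells of a type and less RNA per cell cannot be told apart.

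Transcription of the peptide genes responds to cyclic AMP, and the cyclic AMP response element (CRE) was first defined in the rat somatostatin gene. The stretches of the Sst and Vip promoters are shown because these are the peptide members whose windows hold a CRE or its shorter core. They are from RefSeq on build GRCr8, plus strand, at chr11:90461456-90461555 for Sst and chr1:44470380-44470479 for Vip, with the full CRE (TGACGTCA), its core (TGACG) and a TATA box (TATAAA) in capitals.
Sst: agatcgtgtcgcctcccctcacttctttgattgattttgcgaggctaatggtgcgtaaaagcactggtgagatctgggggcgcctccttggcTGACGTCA
Vip: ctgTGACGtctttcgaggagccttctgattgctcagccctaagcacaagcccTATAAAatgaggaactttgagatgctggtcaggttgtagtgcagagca
The Sst CRE begins at base 3 counted from the annotated gene start, and it overlaps the core on both strands. Whether transcription begins at that annotated start was not checked. Searched on both strands of the RefSeq windows, which run from 250 bases before to 50 after a start, the full CRE was in 1.83% of 33469 promoters, the core in 21.2% and the TATA box in 14.2%. Among the 7 listed members with a window, Npy included and Cck not, Sst alone held the full CRE. The core was also in the windows of Slc32a1, Vip and Pvalb, and the letters TATAAA were in those of Gad1 and Vip. The match in Gad1 began 213 bases before the start, and those in Vip began 175, 165 and 48 bases before it. A further motif, the homeobox core TAATTA, was in 5.36% of promoters and, among the members, in Sst. These matches describe the letters and were not related to the levels below.

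Library totals ran from 10836181 to 20397553 counts, with a median of 14476534. The smallest count behind any value of the least counted member, Vip, was 101 reads. Of the 3 hippocampal markers, 3 were higher in hippocampus and of the 5 cortical markers 5 were lower there, in both genotypes. Each genotype, sex and treatment took a run of consecutive rat numbers, so a batch tied to those runs cannot be told apart from the groups. By markers of neighbouring tissue, 3 libraries stood apart from their group by the gap to the nearest library. For choroid plexus genes they were the cortex of ApoE3 doxorubicin rat 72 and of ApoE3 PBS rat 58, both female. For meningeal genes it was the hippocampus of ApoE4 doxorubicin rat 10. This rule can miss a group with several high libraries. The mean log2 level of choroid plexus genes was 8.94 in hippocampus of ApoE4 PBS rat 7, which was not flagged. It was 7.89 in that of ApoE3 doxorubicin rat 51, also not flagged, against 4.50 and 4.78 in the cortices of rats 72 and 58. Leaving out the 3 libraries thus does not remove every library with high choroid plexus genes. Member results that change without these 3 libraries are given both ways where they are described. The p-values rest on the rats as separate animals, as their numbers give them. Region comparisons hold both libraries of a rat and treat them as independent, and a fit with the rat as a block is given as an alternative. The later test of the sex difference between regions of ApoE3 rats was made without such a block only.

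Levels are in CPM, the count as a share of the library's total on the usual sequencing scale, adjusted between libraries by TMM, and compare 1 gene across groups, not genes with each other. The members fell into a set whose levels set hippocampus apart from cortex and a set whose levels did not. Sst, Vip, Pvalb and Cck were lower in hippocampus than in cortex in 32 of 32 rats each, and the ranges of their 32 libraries per region did not overlap. The share of all genes with such separate ranges was not counted. By edgeR 49.2% of all genes had an adjusted p under 0.05 between regions in ApoE4 PBS rats and 49.3% in ApoE3 PBS rats. Gad1, Gad2 and Slc32a1 had nearly the same range in both regions.

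Sst, the peptide of dendrite-contacting interneurons, ran from 31.4 to 61.2 CPM with a median of 44.7 CPM in hippocampus, against 70.5 to 108 CPM with a median of 89.2 CPM in cortex. Vip, the peptide of interneurons that contact other interneurons, ran from 7.07 to 15.8 CPM with a median of 10.6 CPM in hippocampus, against 21.9 to 38.5 CPM with a median of 31.6 CPM in cortex. For both peptides every hippocampal library was below every cortical one. Pvalb, which encodes the calcium buffer of fast-spiking cells, ran from 27.1 to 52.4 CPM with a median of 37.4 CPM in hippocampus, against 55.0 to 101 CPM with a median of 74.1 CPM in cortex. Cck ran from 98.8 to 190.4 CPM with a median of 148 CPM in hippocampus, against 245 to 391 CPM with a median of 314 CPM in cortex. Pvalb and Cck were thus also fully separated by region.

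Gad1 ran from 164 to 257 CPM with a median of 200.2 CPM in hippocampus, against 160.3 to 266 CPM with a median of 221 CPM in cortex, and was lower in hippocampus in 23 of 32 rats. Gad2 ran from 159 to 273 CPM with a median of 187 CPM in hippocampus, against 138 to 229 CPM with a median of 182 CPM in cortex, and was higher in hippocampus in 20 of 32 rats. Slc32a1 ran from 64.3 to 112 CPM with a median of 75.4 CPM in hippocampus, against 70.5 to 105 CPM with a median of 85.2 CPM in cortex, and was lower in hippocampus in 24 of 32 rats. The ranges of these transmitter genes overlapped between regions over most of their length.

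**Figure D1:**
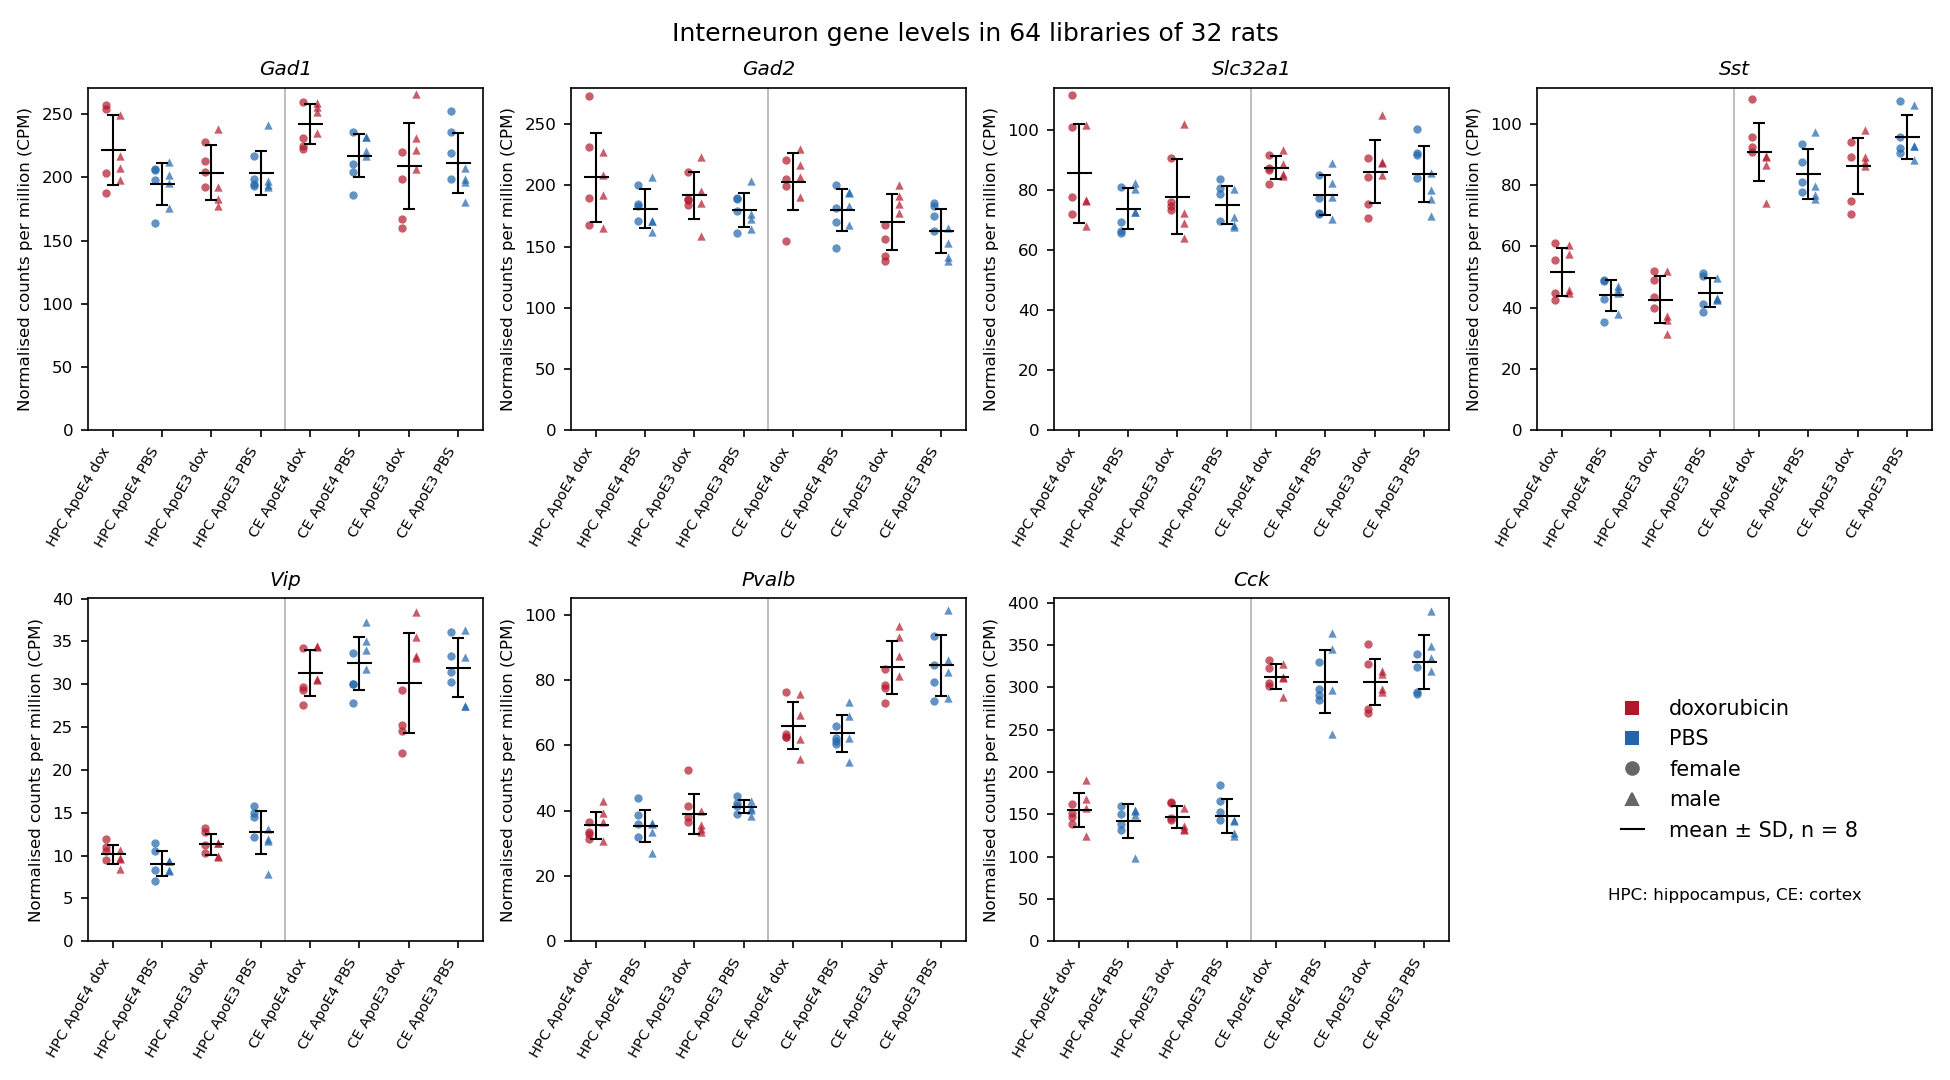
Level of each member in CPM (vertical axes, from 0) in the 8 groups of region, genotype and treatment (horizontal axes), with 1 point per library, circles for females, triangles for males, red for doxorubicin, blue for PBS, and bars for the mean ± SD of 8 libraries. The hippocampal points of Sst, Vip, Pvalb and Cck lie below all cortical points, and the cortical Pvalb points of ApoE4 PBS rats, at 55.0 to 73.2 CPM, lie below those of ApoE3 PBS rats, at 73.8 to 101 CPM.

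Ordered by group mean, Sst, Vip and Cck each had the 4 cortical groups first and the 4 hippocampal groups after them, and the step between the regions was the only one larger than the SDs of the neighbouring groups. Pvalb had 1 more such step, between the cortex of both ApoE3 groups and the cortex of both ApoE4 groups. For Gad1, Gad2 and Slc32a1 no 2 neighbouring groups in the order differed beyond their SD. The highest Gad1 mean was 242 ± 15.7 CPM in cortex of ApoE4 doxorubicin rats, and the lowest was 195 ± 16.5 CPM in hippocampus of ApoE4 PBS rats (SD, n = 8 each). The highest Gad2 mean was 207 ± 36.2 CPM in hippocampus of ApoE4 doxorubicin rats, and the lowest was 163 ± 18.0 CPM in cortex of ApoE3 PBS rats (SD, n = 8 each). The Slc32a1 means ran only from 87.5 ± 3.74 CPM in cortex of ApoE4 doxorubicin rats to 73.9 ± 6.72 CPM in hippocampus of ApoE4 PBS rats (SD, n = 8 each). The other means and SDs are in the plot of levels by group.

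The regional difference was tested in PBS rats within each genotype. In hippocampus against cortex 5 of 7 members fell in ApoE4 rats and 5 of 7 in ApoE3 rats, by edgeR's quasi-likelihood test at an adjusted p under 0.05. Of all genes tested 24.4% fell in ApoE4 rats and 25.1% in ApoE3 rats, so about 1 gene in 4 had such a difference. Vip had the largest log2 change among the members, at -1.85 in ApoE4 rats (SE 0.09, adjusted p = 3.77e-12) and -1.35 in ApoE3 rats (SE 0.10, adjusted p = 5.37e-10). Sst changed by -0.94 in ApoE4 rats (SE 0.07, adjusted p = 3.79e-09) and by -1.11 in ApoE3 rats (SE 0.06, adjusted p = 1.62e-11). Pvalb and Cck also fell in both genotypes. The log2 change of Pvalb was -0.86 in ApoE4 rats (SE 0.08) and -1.05 in ApoE3 rats (SE 0.06). That of Cck was -1.12 in ApoE4 rats (SE 0.09) and -1.18 in ApoE3 rats (SE 0.08).

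The transmitter genes differed little between regions. Gad1 fell in hippocampus of ApoE4 rats, by 0.17 on the log2 scale (SE 0.06, adjusted p = 0.0174), and did not pass in ApoE3 rats, where the change was -0.06 (SE 0.06, adjusted p = 0.417). Slc32a1 fell in hippocampus of ApoE3 rats, by 0.20 (SE 0.05, adjusted p = 0.00439), and did not pass in ApoE4 rats, where the change was -0.10 (SE 0.06, adjusted p = 0.164). Whether these regional differences differ between genotypes was not tested. Gad2 did not pass in either genotype, with a log2 change of -0.00 in ApoE4 rats (95% interval -0.13 to 0.12) and of 0.13 in ApoE3 rats (95% interval 0.02 to 0.24, adjusted p = 0.0660). In ApoE3 rats the Gad2 change passed by DESeq2 (0.14, adjusted p = 0.0451) and without the libraries that stood apart (0.15, adjusted p = 0.0419).

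Genes of the receptors that GABA and the peptides act on differed between regions in both directions, where 24.8% of all genes rose in ApoE4 rats and 24.3% in ApoE3 rats. Of the GABA-A receptor subunits, which form the chloride channel opened by GABA, 4 rose and 8 fell among 14 tested in ApoE4 rats, and 3 rose and 8 fell among 16 tested in ApoE3 rats. Gabra5, a subunit of extrasynaptic receptors common in hippocampus, had a log2 change of 1.63 (SE 0.07) in ApoE4 rats and 1.39 (SE 0.07) in ApoE3 rats. Of the genes for GABA uptake and breakdown, 5 of 7 rose in ApoE4 rats and 6 of 6 rose in ApoE3 rats. Of both GABA-B receptor subunits Gabbr1 rose and Gabbr2 fell in both genotypes. Of 10 genes of the inhibitory synapse and chloride transport, 5 rose and 1 fell in ApoE4 rats, and 5 rose and 2 fell in ApoE3 rats.

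Among the receptors of the member peptides, the neuropeptide Y receptor Npy2r had a log2 change of 4.31 (SE 0.21) in ApoE4 rats and 4.91 (SE 0.16) in ApoE3 rats. The cholecystokinin receptor Cckbr went the same way as its ligand, at -2.20 (SE 0.10) in ApoE4 rats and -1.94 (SE 0.08) in ApoE3 rats. Of the 9 receptors tested, 3 rose and 3 fell in ApoE4 rats, and 3 rose and 4 fell in ApoE3 rats. Other interneuron markers went both ways. Of 23 tested 6 rose and 12 fell in ApoE4 rats, and 8 rose and 11 fell in ApoE3 rats, with Lamp5, a marker of neurogliaform cells, at -2.40 (SE 0.07) in ApoE4 rats and -2.38 (SE 0.05) in ApoE3 rats. Of 13 interneuron transcription factors, 3 rose and 6 fell in ApoE4 rats, and 1 rose and 5 fell in ApoE3 rats. Nr2f2, a factor of interneurons from the caudal ganglionic eminence, had a log2 change of 1.43 (SE 0.17) in ApoE4 rats and 2.14 (SE 0.11) in ApoE3 rats. Of 10 genes of neuropeptide processing and dense-core granules, 4 rose and 4 fell in ApoE4 rats, and 3 rose and 2 fell in ApoE3 rats, led by the granule gene Scg2 at 1.30 (SE 0.09) in ApoE4 rats and 1.25 (SE 0.06) in ApoE3 rats. The 7 tested striatal projection neuron markers, which mark tissue beside the cortex, were lower in hippocampus in both genotypes, and their part in the regional differences was not tested.

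**Figure D2:**
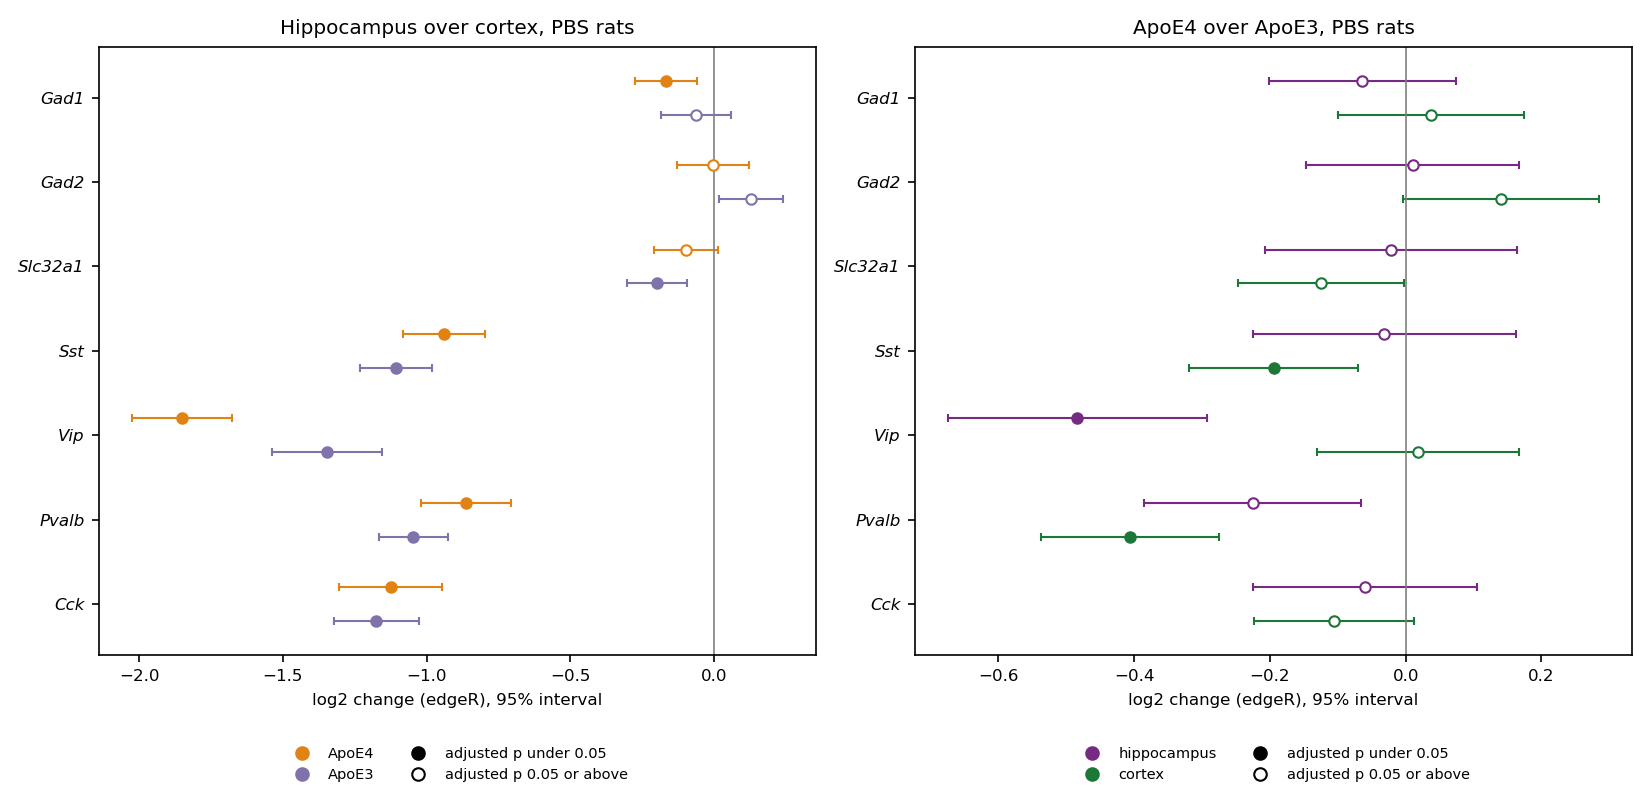
Log2 change of each member (horizontal axes) with its 95% interval, for hippocampus over cortex in PBS rats of each genotype (left) and for ApoE4 over ApoE3 in PBS rats of each region (right). Filled points have an adjusted p under 0.05 by edgeR. On the left Sst, Vip, Pvalb and Cck lie between -1.85 and -0.86, and on the right Vip in hippocampus and Pvalb and Sst in cortex are the filled points.

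The genotype comparison asks what differed between ApoE4 and ApoE3 rats before any drug effect, in PBS rats. In cortex 2 of 7 members fell, Pvalb and Sst, where 8.57% of all genes fell. In hippocampus 1 of 7 members fell, Vip, where 1.89% of all genes fell. No member rose in either region by edgeR, where 9.63% of all genes rose in cortex and 1.93% in hippocampus, and Gad1, Gad2, Slc32a1 and Cck did not pass in any genotype comparison.

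Cortical Pvalb ran from 55.0 to 73.2 CPM with a median of 62.3 CPM in ApoE4 PBS rats, against 73.8 to 101 CPM with a median of 83.6 CPM in ApoE3 PBS rats. The ranges did not overlap, with 73.2 and 73.8 CPM as the nearest values, and the share of all genes with separate ranges was not counted. The log2 change was -0.41 (SE 0.07, 95% interval -0.54 to -0.28, adjusted p = 3.61e-05), and it passed in each of the 16 repeats that left out 1 library, between -0.43 and -0.36. In rats on doxorubicin cortical Pvalb was 55.8 to 76.5 CPM in ApoE4 rats, against 73.1 to 96.6 CPM in ApoE3 rats, with ranges that overlapped slightly. In hippocampus Pvalb did not pass, with a log2 change of -0.23 (SE 0.08, adjusted p = 0.138), on 27.1 to 43.9 CPM in ApoE4 PBS rats, against 38.5 to 44.6 CPM in ApoE3 PBS rats. Whether the genotype difference of Pvalb differs between regions was not tested.

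Cortical Sst ran from 75.5 to 97.3 CPM with a median of 80.4 CPM in ApoE4 PBS rats, against 88.3 to 107 CPM with a median of 92.7 CPM in ApoE3 PBS rats. The groups overlapped in part. The log2 change was -0.19 (SE 0.06, adjusted p = 0.0291). It passed in 10 of the 16 repeats with 1 library left out, where the change ran from -0.23 to -0.17, and missed the threshold without ApoE4 PBS rat 1, 4, 7 or 22 or ApoE3 PBS rat 43 or 58, with a highest adjusted p of 0.0789. It also missed it without the libraries that stood apart (-0.17, adjusted p = 0.0538). In rats on doxorubicin cortical Sst was 74.0 to 107.9 CPM in ApoE4 rats, against 70.5 to 97.8 CPM in ApoE3 rats. The means there, 90.7 and 86.1 CPM in the same order, were thus not lower in ApoE4 rats, and this contrast was not tested. In hippocampus of PBS rats Sst differed by -0.03 (95% interval -0.22 to 0.16).

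Hippocampal Vip ran from 7.07 to 11.5 CPM with a median of 8.83 CPM in ApoE4 PBS rats, against 7.81 to 15.8 CPM with a median of 12.6 CPM in ApoE3 PBS rats. Most ApoE4 values were low, but 1 ApoE3 library lay among them. The log2 change was -0.48 (SE 0.10, 95% interval -0.67 to -0.29, adjusted p = 0.00200), and it passed in each of the 16 repeats that left out 1 library, between -0.55 and -0.42. In rats on doxorubicin hippocampal Vip was 8.45 to 12.0 CPM in ApoE4 rats, against 9.85 to 13.3 CPM in ApoE3 rats. The ranges overlapped, with means of 10.2 and 11.3 CPM, and this contrast was not tested. In cortex of PBS rats Vip differed by 0.02 (95% interval -0.13 to 0.17). These Vip values rest on few reads, 101 to 148 per library in hippocampus of ApoE4 PBS rats and 108 to 244 in ApoE3 PBS rats.

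The remaining members had smaller differences between genotypes. In cortex of PBS rats the log2 change of ApoE4 against ApoE3 was 0.04 for Gad1 (SE 0.07), 0.14 for Gad2 (SE 0.07, adjusted p = 0.188), -0.12 for Slc32a1 (SE 0.06, adjusted p = 0.167) and -0.11 for Cck (SE 0.06, adjusted p = 0.229). In hippocampus it was -0.06 for Gad1 (SE 0.07), 0.01 for Gad2 (SE 0.08), -0.02 for Slc32a1 (SE 0.09) and -0.06 for Cck (SE 0.08).

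Other genes of inhibitory transmission differed by genotype in cortex, where 18.2% of all genes passed in either direction. Of 16 GABA-A receptor subunits, Gabrb1 (0.27, SE 0.08) and Gabra2 (0.14, SE 0.05) rose and Gabra5 (-0.24, SE 0.07) fell. Of 7 genes of GABA uptake and breakdown, Aldh9a1 (0.26, SE 0.06) and the betaine and GABA transporter Slc6a12 (1.29, SE 0.42) rose. Of 10 genes of the inhibitory synapse, Slc12a5, the neuronal chloride exporter, rose by 0.15 (SE 0.05). Of 13 interneuron transcription factors, Sox6 (0.46, SE 0.10), Nr2f2 (0.47, SE 0.12) and Maf (0.27, SE 0.07) rose and Dlx2 (-0.59, SE 0.17) fell. Of 24 other interneuron markers, Erbb4, Reln, Htr3a and Tac3 rose and Rab3b and Sncg fell, with Htr3a, a serotonin-gated channel of interneurons that include the Vip class, at 0.49 (SE 0.13). Sox6, which in mouse is needed for Sst and Pvalb cells to mature, was higher in the cortex where Pvalb and Sst were lower, and a relation between them was not tested. None of the 8 tested receptors of the member peptides passed by edgeR, where 1 had an unadjusted p under 0.05, against 31.5% of all genes. Of 10 processing genes, Pam, which amidates peptides, rose by 0.23 (SE 0.04), and Scg3 (-0.18, SE 0.03) and Scg5 (-0.15, SE 0.05) fell.

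In hippocampus, where 3.81% of all genes passed in either direction, 4 genes of these lists passed. They were the GABA-A subunit gene Gabra3 at -0.42, Aldh9a1 at 0.21, the marker Sncg at -2.32 and the somatostatin receptor gene Sstr1 at -0.41. No transcription factor, synapse, processing or GABA-B gene passed by edgeR, where 0 of 14, 2 of 10, 3 of 10 and 1 of 2 had an unadjusted p under 0.05, against 16% of all genes.

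Markers of other cells moved with genotype. In cortex 5 of 5 meningeal markers were higher in ApoE4 PBS rats, 3 of them passing, with a median log2 change of 1.05, and their summed level had a lowest value of 53.3, a median of 133 and a highest of 166 CPM in ApoE4 PBS rats, against 43.1, 60.6 and 74.6 CPM in ApoE3 PBS rats. In both regions 4 of 4 microglial markers were lower, 2 of them passing. In hippocampus 5 of 5 oligodendrocyte markers were higher, 2 of them passing, and 6 of 6 choroid plexus markers were higher with a median of 2.68, none passing and 3 with an unadjusted p under 0.05. Of all genes 48.2% were higher in cortex and 49.8% in hippocampus, and 18.2% and 3.81% passed in either direction. In hippocampus 16% of all genes had an unadjusted p under 0.05. The part of these markers in the Pvalb, Sst and Vip differences was not tested.

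The drug comparison asks what differed weeks after the last dose, separately for each region of each genotype. By edgeR no member passed in any of the 4 comparisons, nor did any gene (0% of all genes in each). By DESeq2 no member passed either, where 0.0086% of all genes passed in ApoE4 hippocampus, 0.977% in ApoE3 hippocampus, 0.692% in ApoE4 cortex and 0.58% in ApoE3 cortex. At an unadjusted edgeR p under 0.05 there were 2 members in ApoE4 hippocampus, 0 in ApoE3 hippocampus, 3 in ApoE4 cortex and 1 in ApoE3 cortex, against 7.38%, 10.3%, 8.82% and 9.25% of all genes in the same order. The values of the members with the smallest p follow.

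Gad1 in ApoE4 cortex ran from 222 to 259.6 CPM with a median of 243 CPM on doxorubicin, against 186 to 236 CPM with a median of 219 CPM on PBS. All 8 doxorubicin libraries were above the PBS median and 4 were above the highest PBS library. The log2 change was 0.15 (95% interval 0.06 to 0.23, unadjusted p = 0.002, adjusted p = 0.362). Slc32a1 in ApoE4 cortex ran from 82.0 to 93.5 CPM with a median of 87.1 CPM on doxorubicin, against 70.5 to 88.9 CPM with a median of 77.6 CPM on PBS. Again all 8 doxorubicin libraries were above the PBS median, with 2 above the highest PBS library. The log2 change was 0.15 (95% interval 0.06 to 0.24, unadjusted p = 0.00375, adjusted p = 0.376). Gad2 in ApoE4 cortex ran from 155 to 229 CPM with a median of 206 CPM on doxorubicin, against 149 to 201 CPM with a median of 182 CPM on PBS. Its log2 change was 0.16 (95% interval 0.04 to 0.28, unadjusted p = 0.0175, adjusted p = 0.458), with 5 of 8 doxorubicin libraries above the highest PBS library.

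In ApoE4 hippocampus Gad1 ran from 188 to 257 CPM with a median of 213 CPM on doxorubicin, against 164 to 212 CPM with a median of 199.8 CPM on PBS. Its log2 change was 0.18 (95% interval 0.04 to 0.32, unadjusted p = 0.0227, adjusted p = 0.641). Sst there ran from 42.5 to 61.2 CPM with a median of 50.7 CPM on doxorubicin, against 35.4 to 49.0 CPM with a median of 45.4 CPM on PBS, a log2 change of 0.22 (95% interval 0.04 to 0.40, unadjusted p = 0.0262, adjusted p = 0.641). For each of these genes 4 of 8 doxorubicin libraries were above the highest PBS library and the rest overlapped. Gad2 (0.18) and Slc32a1 (0.21) had unadjusted p-values of 0.0549 and 0.0507 there, and under each of 5 other settings, without the library that stood apart among them, 4 members rather than 2 had an unadjusted p under 0.05. Without that library 1935 of 14928 genes were under 0.05, against 1098 of 14873 with it. The count was 1063 of 14873 by DESeq2, 1112 of 14873 with RLE scaling, 1537 of 24099 with no filter and 1295 of 15416 with the 32 libraries of the region.

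In ApoE3 rats the values of these genes were mixed in sign. The log2 change of Gad1 was -0.00 (95% interval -0.13 to 0.12) in hippocampus and -0.01 (95% interval -0.18 to 0.15) in cortex. That of Gad2 was 0.09 (95% interval -0.02 to 0.21, 7 of 8 doxorubicin libraries above the PBS median) in hippocampus and 0.06 (95% interval -0.09 to 0.21) in cortex, and that of Slc32a1 was 0.05 in hippocampus and 0.02 in cortex. Sst in ApoE3 cortex ran from 70.5 to 97.8 CPM with a median of 88.2 CPM on doxorubicin, against 88.3 to 107 CPM with a median of 92.7 CPM on PBS, a log2 change of -0.15 (95% interval -0.26 to -0.03, unadjusted p = 0.0195, adjusted p = 0.455). The ranges overlapped, and without the libraries that stood apart the change was -0.10 with an unadjusted p of 0.103, leaving 0 members under 0.05. Vip differed by 0.16 and -0.17 in hippocampus of ApoE4 and ApoE3 rats, and by -0.06 and -0.09 in cortex of ApoE4 and ApoE3 rats. Pvalb and Cck stayed between -0.10 and 0.12 in all 4 comparisons.

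The difference between the genotypes' drug effects was tested directly, and no member passed in either region by edgeR or DESeq2. By edgeR 0% of all genes passed in each region, and by DESeq2 0.013% passed in hippocampus and 0% in cortex. The largest member differences were those of Vip, at 0.33 in hippocampus (95% interval 0.06 to 0.60, unadjusted p = 0.0232), and of Sst, at 0.30 in hippocampus (95% interval 0.03 to 0.58, unadjusted p = 0.0363) and 0.25 in cortex (95% interval 0.07 to 0.42, unadjusted p = 0.00914). Their adjusted p-values were 0.558, 0.589 and 0.879. At an unadjusted edgeR p under 0.05 there were thus 2 members in hippocampus and 1 in cortex, against 8.18% and 5.45% of all genes. The difference between the hippocampal and the cortical drug effect did not pass for any member in either genotype by edgeR, where 0% of all genes passed and no member had an unadjusted p under 0.05, against 3.59% of all genes in ApoE4 rats and 8% in ApoE3 rats. Vip in ApoE4 rats was nearest (0.23, unadjusted p = 0.0508), and it was under 0.05 by DESeq2, with no filter, without the libraries that stood apart and with the rat as a block, at 0.0417 to 0.0474. By DESeq2, where 0% of all genes passed in ApoE4 rats and 0.819% in ApoE3 rats, no member passed either. The member differences ran from -0.04 to 0.23 in ApoE4 rats and from -0.10 to 0.09 in ApoE3 rats.

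**Figure D3:**
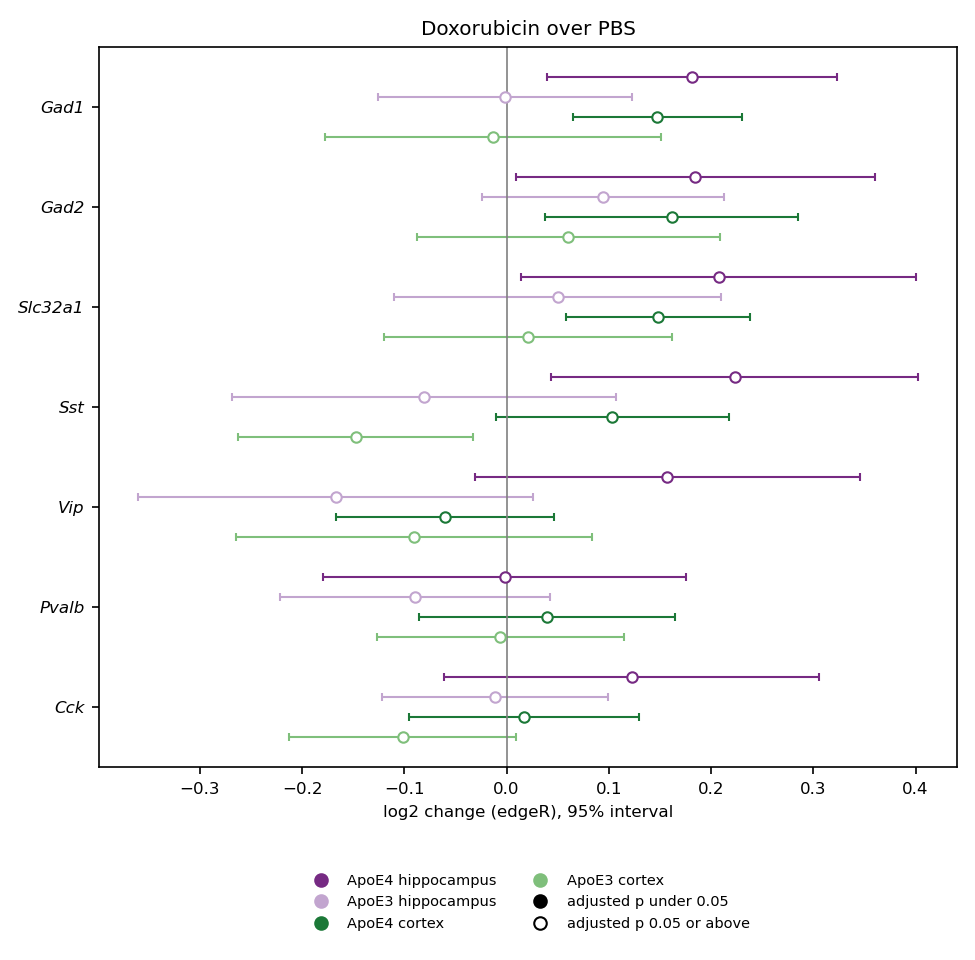
Log2 change of each member for doxorubicin over PBS (horizontal axis) with its 95% interval, in the 4 sets of region and genotype, 16 libraries each. All points are open, since no member had an adjusted p under 0.05. In ApoE4 rats Gad1, Gad2 and Slc32a1 lie between 0.15 and 0.21, and in ApoE3 rats between -0.01 and 0.09.

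No other listed gene of inhibitory transmission passed for doxorubicin by edgeR in any set. In ApoE4 cortex, where 8.82% of all genes had an unadjusted p under 0.05, 3 of 14 GABA-A subunits did, all higher, as did the interneuron marker Erbb4, a neuregulin receptor, at 0.22 (SE 0.07). In ApoE4 hippocampus, where 7.38% of all genes had an unadjusted p under 0.05, 4 of 24 other interneuron markers did, all higher, with Htr3a at 0.49 (SE 0.16), the peptide gene Tac1 at 0.35 (SE 0.15) and Nos1 at 0.24 (SE 0.10). Choroid plexus markers were lower on doxorubicin in ApoE4 rats, 6 of 6 in hippocampus with a median log2 change of -3.02 and 4 of 4 in cortex with a median of -1.65, each with an unadjusted p under 0.05 and none passing. Of all genes 3.57% were lower at that threshold in ApoE4 hippocampus and 3.86% in ApoE4 cortex. In ApoE4 cortex 6 of 7 striatal markers were higher, with a median of 0.22 and none with an unadjusted p under 0.05. In ApoE3 hippocampus 5 of 5 meningeal markers were lower, with a median of -1.95, and in ApoE3 cortex 5 of 5 were higher, with a median of 0.42. Of all genes 49.8% had a log2 change above 0 in ApoE4 cortex, 50.7% in ApoE3 hippocampus and 49.9% in ApoE3 cortex. The part of these markers in the member values was not tested.

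The drug effect differed by sex in ApoE3 cortex. There the female effect minus the male effect fell for 4 of 7 members, Gad1, Gad2, Slc32a1 and Vip, where it fell for 1.81% of all genes. Sst (-0.15), Pvalb (-0.14) and Cck (0.16) did not pass. In the other 3 sets no member passed by edgeR, where 0.00674% of all genes passed in ApoE4 cortex and 0% in both hippocampal sets, and none had an unadjusted p under 0.05, against 5.84% of all genes in ApoE4 cortex, 3.49% in ApoE4 hippocampus and 4.45% in ApoE3 hippocampus. Without the library that stood apart, Pvalb in ApoE4 hippocampus was at -0.42 with an unadjusted p of 0.0147, against -0.33 and 0.0621 with it.

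Gad2 in ApoE3 cortex was at 142, 167, 156 and 138 CPM in doxorubicin females, against 183, 185, 163 and 175 CPM in PBS females. It was at 200.4, 184, 192 and 177 CPM in doxorubicin males, against 138, 153, 165 and 141 CPM in PBS males. The female groups overlapped by 1 pair of values, with doxorubicin low, and the male groups did not overlap, with doxorubicin high. How many of all genes had separate ranges in males was not counted. The difference of the effects was -0.56 (SE 0.09, 95% interval -0.74 to -0.37, adjusted p = 0.00272), and it passed in each of the 16 repeats with 1 library left out, between -0.60 and -0.52.

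Gad1 was at 167, 220.3, 199 and 160.3 CPM in doxorubicin females, against 253, 236, 199 and 219 CPM in PBS females. It was at 266, 206, 222 and 231 CPM in doxorubicin males, against 180.2, 196, 207 and 199 CPM in PBS males. Both sexes overlapped between treatments, females by more. The difference of the effects was -0.52 (SE 0.12, adjusted p = 0.0287), and it passed in 10 of 16 repeats. Slc32a1 was at 70.7, 90.7, 84.4 and 75.4 CPM in doxorubicin females, against 92.5, 101, 91.8 and 84.2 CPM in PBS females. It was at 105, 89.6, 85.2 and 89.1 CPM in doxorubicin males, against 71.5, 85.7, 80.3 and 77.0 CPM in PBS males. Doxorubicin was again the lower group in females and the higher in males, with overlap in both sexes. The difference of the effects was -0.43 (SE 0.11, adjusted p = 0.0401), and it passed in 7 of 16 repeats.

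Vip was at 24.6, 29.3, 25.2 and 21.9 CPM in doxorubicin females, against 30.3, 33.3, 36.1 and 31.4 CPM in PBS females. It was at 33.3, 38.5, 35.5 and 33.1 CPM in doxorubicin males, against 27.5, 27.4, 33.1 and 36.3 CPM in PBS males. The female groups did not overlap and the male groups did, and how many of all genes had separate ranges in females was not counted. The difference of the effects was -0.54 (SE 0.14, adjusted p = 0.0334), and it passed in 6 of 16 repeats. Gad1, Slc32a1 and Vip each missed the threshold without PBS rat 37, PBS rat 58, doxorubicin rat 47, 65 or 72, leaving Gad2 alone, with adjusted p-values up to 0.0992. One or 2 of the 3 were also lost without PBS rat 41, 43, 45, 59 or 61 or doxorubicin rat 49 or 51. Without both libraries that stood apart in choroid plexus genes only Gad2 passed, and the difference was -0.44 for Gad1 (adjusted p = 0.122), -0.36 for Slc32a1 (adjusted p = 0.156) and -0.48 for Vip (adjusted p = 0.136).

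**Figure D4:**
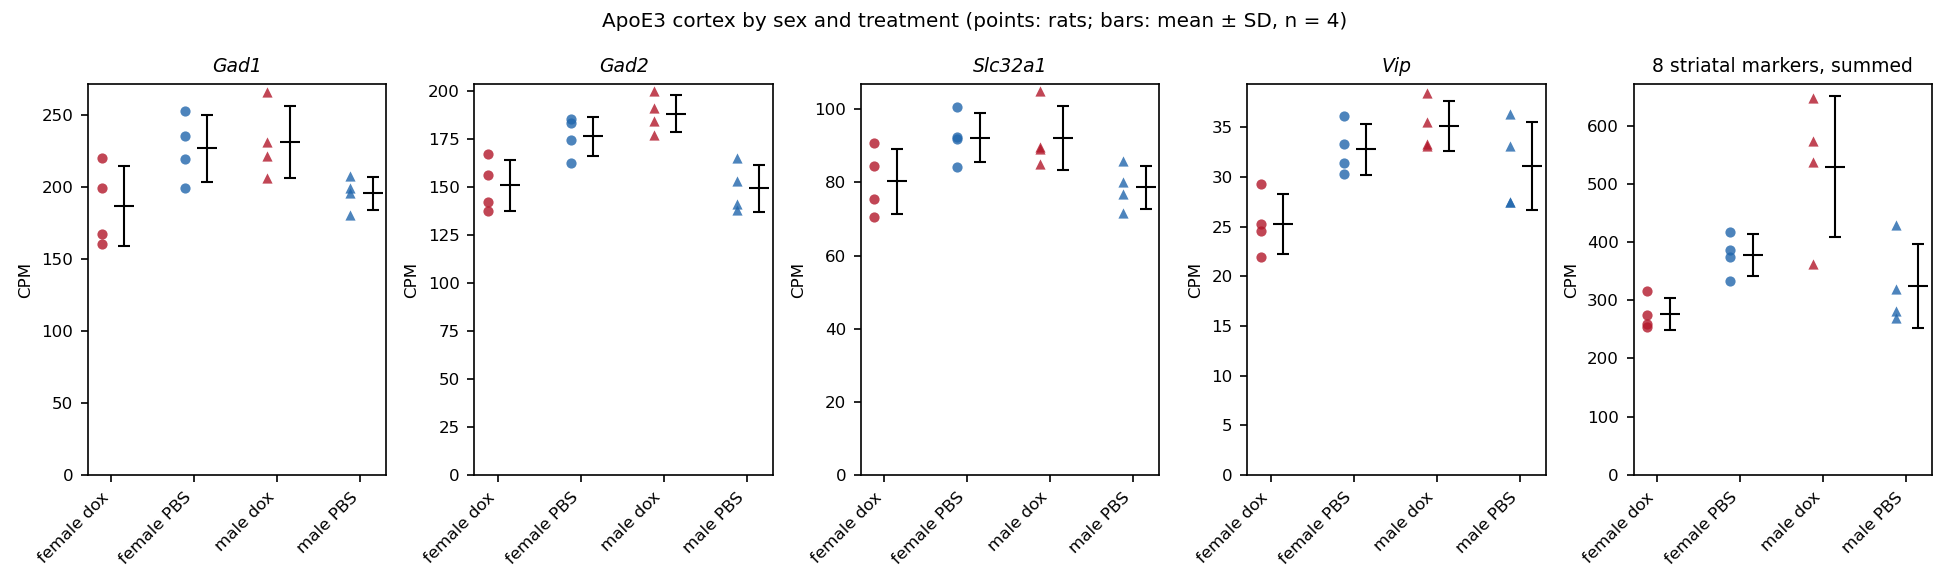
CPM (vertical axes, from 0) of Gad1, Gad2, Slc32a1 and Vip and the summed CPM of 8 striatal projection neuron markers in ApoE3 cortex, by sex and treatment, with 1 point per rat (circles for females, triangles for males, red for doxorubicin, blue for PBS) and bars for the mean ± SD of 4 rats. In all 5 panels the doxorubicin mean is below the PBS mean in females and above it in males.

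Within each sex of the ApoE3 cortex the contrasts were smaller than their difference. In females no member passed for doxorubicin against PBS by edgeR, where 1.33% of all genes passed, and 5 of 7 had an unadjusted p under 0.05, against 18.4% of all genes, with a log2 change of -0.22 for Gad2 (adjusted p = 0.0843), -0.27 for Gad1 (adjusted p = 0.105), -0.19 for Slc32a1 (adjusted p = 0.191) and -0.37 for Vip (adjusted p = 0.0562). In males Gad2 rose, by 0.34 (adjusted p = 0.0171), where 0.799% of all genes passed, and Gad1 (0.24, adjusted p = 0.207) and Slc32a1 (0.23, adjusted p = 0.174) did not pass. Between the sexes, Gad1 (-0.31, adjusted p = 0.0433), Gad2 (-0.32, adjusted p = 0.00975) and Vip (-0.47, adjusted p = 0.00943) were lower in females than in males on doxorubicin, where 4.99% of all genes passed. In PBS rats no member passed between the sexes by edgeR, where 0.765% of all genes passed, and 4 of 7 had an unadjusted p under 0.05, against 13.9% of all genes. In those PBS rats Gad1 (0.21, adjusted p = 0.282), Gad2 (0.24, unadjusted p = 0.00156, adjusted p = 0.0908) and Slc32a1 (0.23, adjusted p = 0.179) had the opposite sign to the same contrast on doxorubicin, so the difference of the drug effects holds a PBS part as well as a doxorubicin part. Over all 32 libraries of a region, female against male, no member passed by edgeR, where 0.11% of all genes passed in hippocampus and 0.705% in cortex, and Vip was the one member with an unadjusted p under 0.05 (9.49% of all genes in hippocampus and 15% in cortex), with log2 changes of 0.19 in hippocampus (adjusted p = 0.331) and -0.17 in cortex (adjusted p = 0.117).

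Whether the sex difference of the drug effect was itself different in ApoE4 cortex or in ApoE3 hippocampus was tested after seeing these values. No member passed by edgeR in either test, where 0.0914% and 0.0519% of all genes passed. For ApoE4 minus ApoE3 cortex the differences were 0.53 for Gad1 (adjusted p = 0.146), 0.52 for Gad2 (adjusted p = 0.166), 0.46 for Slc32a1 (adjusted p = 0.165) and 0.62 for Vip (adjusted p = 0.125). For hippocampus minus cortex of ApoE3 rats they were 0.65 for Gad1 (adjusted p = 0.163) and 0.59 for Gad2 (adjusted p = 0.145). Each of these had an unadjusted p under 0.05, as did 14.1% and 12.8% of all genes in the same order. No member's sex difference in ApoE3 cortex was thus shown to differ from that in these sets.

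Striatal projection neuron markers moved with the 4 members in ApoE3 cortex. Of the 7 tested, 7 had a lower female than male effect and 6 passed, where 1.81% of all genes passed in that direction. Their median was -1.09, led by the dopamine receptor gene Drd2 at -2.27 (SE 0.39). The summed level of the 8 markers had a lowest value of 254, a median of 267 and a highest of 315 CPM in doxorubicin females, against 332, 380.1 and 418 CPM in PBS females. It had a lowest value of 362, a median of 555 and a highest of 647 CPM in doxorubicin males, against 269, 301 and 429 CPM in PBS males. Since those neurons use Gad1, Gad2 and Slc32a1, the fit was repeated with the mean log2 level of the striatal markers as a covariate, an alternative chosen after seeing the data. No member then passed by edgeR, with differences of -0.59 for Gad2 (SE 0.15, adjusted p = 0.0552), -0.64 for Gad1 (SE 0.20, adjusted p = 0.105), -0.50 for Slc32a1 (SE 0.18, adjusted p = 0.145) and -0.78 for Vip (SE 0.21, adjusted p = 0.0641). Each of the 4 had an unadjusted p under 0.05. The striatal marker level itself followed sex and treatment in these libraries, and the SEs were wider than without it. This fit therefore cannot separate that level from the sex difference of the drug effect. In ApoE4 cortex the striatal sum ran from 255 to 271 CPM in doxorubicin females, against 283 to 331 CPM in PBS females. In males there it ran from 350 to 695 CPM on doxorubicin, against 301 to 480 CPM on PBS. No member passed for sex by doxorubicin in that set, where 0.00674% of all genes passed, with Gad1 at 0.01 and Gad2 at -0.04.

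Some related genes also passed in this comparison, and those that did fell, as did 1.81% of all genes. Of 14 GABA-A receptor subunits, 4 fell and none rose, among them Gabrb2 (-0.61, SE 0.13) and Gabra4 (-0.36, SE 0.10). Of 24 other interneuron markers, 4 fell, Erbb4 at -0.55 (SE 0.12), the potassium channel gene Kcnc2 of fast-spiking cells at -0.47 (SE 0.12), and the peptide genes Penk at -1.07 (SE 0.25) and Tac1 at -1.04 (SE 0.28), both also used by striatal projection neurons. Of 10 processing genes, the granule genes Scg2 (-0.47, SE 0.10) and Chgb (-0.38, SE 0.10) fell. None of the GABA-B, uptake, synapse, transcription factor and peptide receptor genes passed by edgeR, where 0 of 2, 0 of 6, 4 of 10, 5 of 13 and 0 of 8 had an unadjusted p under 0.05, against 19.5% of all genes. None of 5 excitatory neuron markers passed, and their median was 0.03.

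The members were also compared rat by rat, after the mean of each genotype, treatment and sex had been taken off the log2 CPM. Of 42 correlations, 21 member pairs in each region over 32 libraries, those among Gad1, Gad2, Slc32a1 and Sst were all positive and passed in both regions by a permutation test within groups with Benjamini-Hochberg adjustment over the 42. Gad1 and Slc32a1 had a Pearson r of 0.81 (adjusted permutation p = 0.00196) and a Spearman rho of 0.73 (adjusted permutation p = 0.00336) in hippocampus, and an r of 0.72 (adjusted permutation p = 0.00203) and a rho of 0.75 (adjusted permutation p = 0.0021) in cortex. Without the 2 libraries farthest from the median of Gad1, r was 0.77 in hippocampus and 0.68 in cortex. Gad1 and Gad2 had an r of 0.77 and a rho of 0.76 in hippocampus, and an r of 0.64 and a rho of 0.67 in cortex, with adjusted permutation p-values of 0.00196, 0.0021, 0.00202 and 0.00262. Without the 2 farthest libraries their r was 0.73 in hippocampus and 0.60 in cortex.

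Vip passed with no other member in either region. Pvalb passed with Cck in hippocampus, with an r of 0.67 (adjusted permutation p = 0.00537) and a rho of 0.67 (adjusted permutation p = 0.00357), and without the 2 farthest libraries r was 0.63. In cortex the r of Pvalb and Cck was -0.17 and did not pass. Sst and Cck passed in cortex, with an r of 0.61 (adjusted permutation p = 0.0265) and a rho of 0.62 (adjusted permutation p = 0.0143), and without the 2 farthest libraries r was 0.52. The members of a pair share a library and its depth and scaling. How many pairs of all genes would pass the permutation test was not counted. Genes outside the list had an r in the same range, such as Prpf19 with Sst at 0.78 in hippocampus and 0.81 in cortex. For no member did the hippocampal and the cortical level of the same rat correlate past the threshold among 7 such tests, the highest r being 0.43 for Vip (rho 0.39, adjusted permutation p = 0.262 for r and 0.229 for rho).

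**Figure D5:**
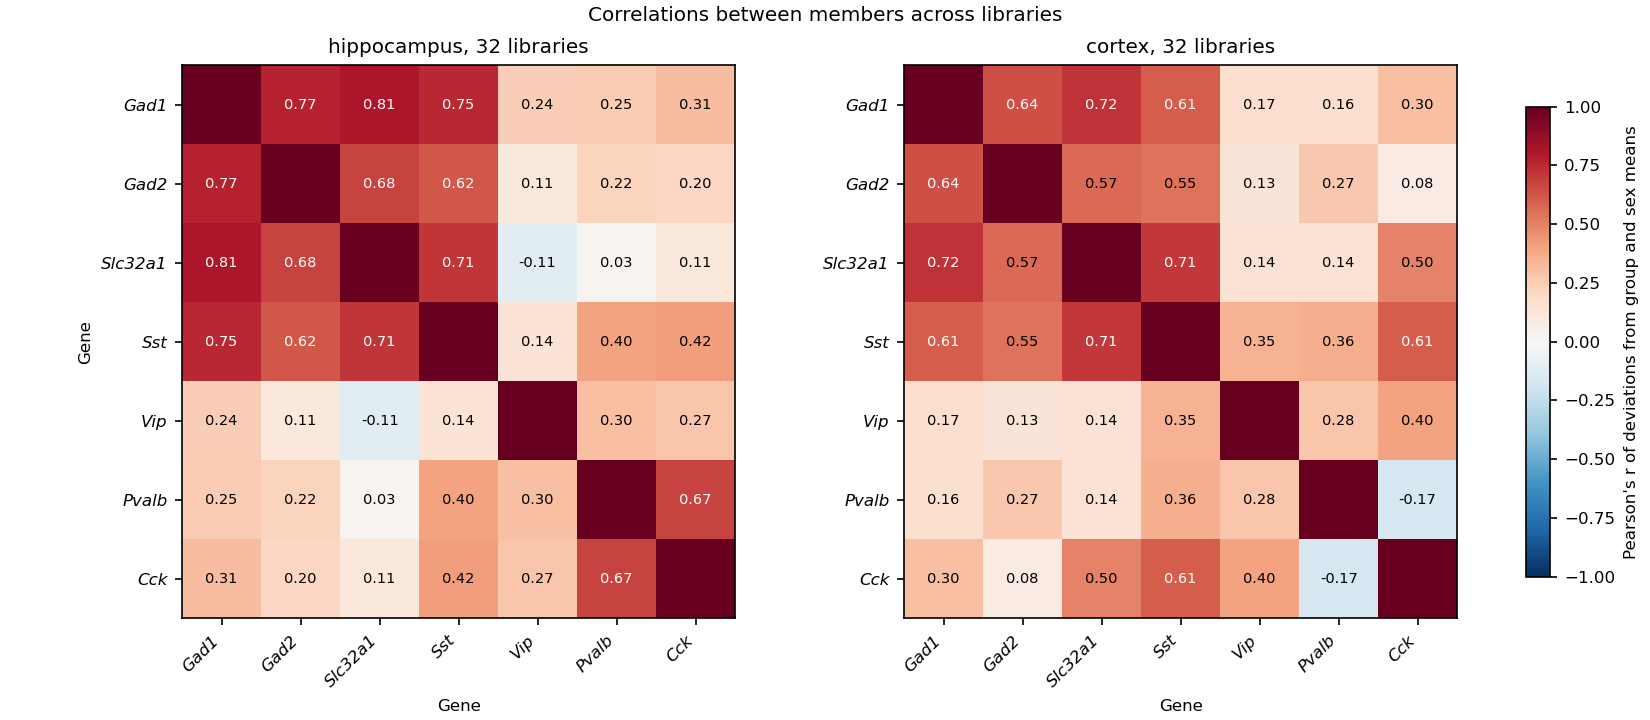
Pearson's r between members over the 32 libraries of hippocampus (left) and of cortex (right), of log2 CPM less the mean of each genotype, treatment and sex, with the value printed in each square and red for positive and blue for negative r. The squares among Gad1, Gad2, Slc32a1 and Sst are red in both regions, from 0.55 to 0.81, and that of Pvalb and Cck is 0.67 in hippocampus and -0.17 in cortex.

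By the mean r over both regions among 12983 genes, given as a description, the genes most like Gad1 were Slc32a1 (0.77), Gad2 (0.71) and Nolc1 (0.70). Those most like Gad2 were Gad1, Atp2a2 (0.68) and Tmx2 (0.67), and those most like Slc32a1 were Gad1, Spock2 (0.77) and Clstn3 (0.75). Members were thus among the nearest genes only for the transmitter genes. Sst was most like Prpf19 (0.80), Dctn2 (0.79) and Clstn3 (0.77), and Pvalb most like Bend6 (0.68), with the myelin glycoprotein gene Omg (0.66) also among its 3 nearest. Cck was most like Ctxn1 (0.77), the synaptic vesicle gene Svop (0.75) and Lingo1 (0.74). The nearest genes of Vip were the least alike, at 0.56 for Cntnap5c, 0.53 for Pus7 and 0.52 for Nlk.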

How the data were processed

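RNA was extracted with the Qiagen RNeasy Plus kit and libraries were made with NEBNext Ultra II, per the labels' protocols. Reads were aligned by the authors with STAR 2.5.2b and compared with DESeq2, per the submitters' processing notes. The read counter, genome build and strandedness are not given in the sources used here. The authors deposited unnormalised counts per Ensembl gene, in 1 table per region and genotype, each with 32551 gene IDs, 92 spike-in rows and 1 donor row. Their comparison tables, as deposited, also hold a normalized signal per library (the count divided by a size factor), a log2 fold change and raw and adjusted p-values, for rows of at least 161 counts in total, and gave the gene symbols. All tests here used the deposited counts. Columns tied to no sample numbered 0 and are not used.

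Counts were fitted in R 4.3.3 with edgeR 4.0.16 (filterByExpr, TMM scaling, quasi-likelihood F-test, Benjamini-Hochberg adjustment over all genes tested, threshold 0.05), without spike-ins. Unless named otherwise, p-values are from this test. SEs were recovered from F and the log2 change, and a 95% interval is the change ± 1.96 SE. Depth and the number of libraries limit the precision. Doxorubicin and sex comparisons used the 16 libraries of a region and genotype, genotype comparisons the 32 of a region, and region comparisons 16 PBS libraries (32 for region by doxorubicin). Sex was a covariate where it was not tested. Correlations used log2 CPM with a prior count of 1 and 100000 permutations. Alternatives were DESeq2 1.42.0, RLE scaling, no filter, omission of libraries that stand apart, the 32 libraries of the region, no sex covariate and the rat as a block. Tests within sex, the differences of the sex difference, the omission of single libraries and the striatal covariate were added after seeing the data. The code was tested on simulated data.

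The same rat gave a hippocampal and a cortical library, which pairs them by animal. Over 14311 genes their deviations from group means correlated by -0.12 to 0.27, with a median of 0.10. Between different rats the correlations ran from -0.48 to 0.49, with a median of -0.0013. For 3 of 32 rats the hippocampal library correlated highest with the rat's own cortical library.

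The members and lists were chosen with earlier results of these data known. All members are read out. Of other lists, up to 4 genes of smallest p per direction that passed are named, or up to 3 of smallest p where none did. The genes most like a member are the 3 of highest mean r. A few genes that these rules would name are not reported here.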

Additional observations from a re-analysis of the deposited data

Results flagged for a closer look

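The effect of doxorubicin in females minus that in males passed the test in ApoE3 cortex for Gad1 (-0.52), Gad2 (-0.56), Slc32a1 (-0.43) and Vip (-0.54, all on the log2 scale). Only Gad2 passed without the libraries that stood apart, and no member passed with the striatal score as a covariate (Gad1 -0.64, Gad2 -0.59, Slc32a1 -0.50, Vip -0.78). That score followed sex and treatment in these libraries, so the fit cannot separate it from the sex difference.

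Of 56 member and group combinations, 2 had a library far from its group by Dixon's criterion, which chance alone passes in about 5% of groups. Pvalb was at 52.4 CPM in hippocampus of ApoE3 doxorubicin rat 66, the highest of that group. Cck was at 98.8 CPM in hippocampus of ApoE4 PBS rat 7, the lowest of that group. This library also had the highest choroid plexus level of its group and was not among those left out. A relation between these values was not tested.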

How the results depend on the processing

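Without the libraries that stood apart, the members that passed numbered 1 and not 2 for ApoE4 against ApoE3 in cortex, and 1 and not 4 for sex by doxorubicin in ApoE3 cortex. With the striatal score as a covariate the second of these counts was 0, and the differences of the 4 members ran from -0.78 to -0.50. That fit cannot separate the score from sex and treatment. With single libraries left out these counts ran from 1 to 2 and from 1 to 4. No other count of passing members moved by more than 1.5 times. Among single members, 0 calls were lost by DESeq2, RLE scaling, no filter, no sex covariate or 32 libraries, 4 without the libraries that stood apart and 4 with the striatal covariate. Reversed signs were all of differences that did not pass. For doxorubicin against PBS they were Gad1 in ApoE3 hippocampus by DESeq2 (8.95e-05) and RLE scaling (2.89e-05), Pvalb in ApoE4 hippocampus by DESeq2 and RLE scaling (0.0041 each), with no filter (0.0037), without the libraries that stood apart (0.029) and with 32 libraries (0.0040), and Gad1 in ApoE3 cortex without the libraries that stood apart (0.058). Without those libraries the sign also turned for differences of drug effects, namely sex by doxorubicin for Gad2 in ApoE4 hippocampus (-0.019), genotype by doxorubicin for Vip in cortex (-0.028), and region by doxorubicin in ApoE3 rats for Gad1 (-0.049), Gad2 (-0.023) and Slc32a1 (-0.021). It turned for Gad2 in hippocampus against cortex of ApoE4 rats with no filter (0.0021), and for sex by doxorubicin of Cck in ApoE3 cortex with the striatal covariate (-0.051). The cause was not tested. In the paired fit with the rat as a replicate block, 5 members passed in hippocampus against cortex in each genotype, as without it, and no call at an adjusted p changed.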
